A study of Mus musculus with 8 samples.

Results

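The genes described here were 10 regulators of G protein signaling (RGS genes), Rgs2, Rgs4, Rgs6, Rgs7, Rgs8, Rgs9, Rgs10, Rgs12, Rgs14 and Rgs16, chosen by symbol from the 38553 genes of the deposited table and followed through every library by gene identifier. Gene expression was measured by RNA-Seq in the dorsal and ventral medial entorhinal cortex (MEC), the cortical area that holds grid cells, of 13 male C57BL/6JolaHsd mice aged 8 weeks. No treatment of the mice is described. The dorsal and the ventral MEC were dissected from a single sagittal slice, 400 µm thick, of the right hemisphere of each mouse, and tissue of 3 or 4 mice was pooled by region, which gave 4 dorsal and 4 ventral libraries. Each library was therefore a pool, and the spread between libraries of a region was a spread between pools of mice. The study asked how gene expression in the MEC is organized along the dorsoventral axis. D>V marks a gene with higher expression in the dorsal MEC and V>D a gene with higher expression in the ventral MEC.

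RGS proteins shorten signals from G protein-coupled receptors. Such a receptor loads the alpha subunit of its G protein with GTP, the loaded subunit acts on channels and enzymes, and an RGS protein speeds the hydrolysis of the GTP and so ends the signal. Neurons use them to set how long transmitters such as acetylcholine, dopamine, serotonin and GABA act through metabotropic receptors. The R4 subfamily (here Rgs2, Rgs4, Rgs8 and Rgs16) consists of small proteins with little more than the RGS domain, the R7 subfamily (Rgs6, Rgs7 and Rgs9) of proteins that are bound to an atypical G protein beta subunit, Gnb5, and the R12 subfamily (Rgs10, Rgs12 and Rgs14) of a small protein, Rgs10, and of a pair of large ones that also bind Ras proteins and inactive alpha subunits.

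Upstream sequence is shown for Rgs4, Rgs8 and Rgs12, the 3 genes for which all libraries of one region lay above all of the other. Each is the run of 250 bases before a RefSeq transcription start in GRCm38.p6, written from 5′ to 3′ on the gene's strand. Capitals mark 3 motifs, each searched on both strands. The half-site of a cAMP response element (CRE) has the letters TGACG, the TATA motif reads TATAAA, and a GC box is spelled GGGCGG. No motif overlapped another in these runs.
Rgs4, chr1:169747643-169747892, minus strand: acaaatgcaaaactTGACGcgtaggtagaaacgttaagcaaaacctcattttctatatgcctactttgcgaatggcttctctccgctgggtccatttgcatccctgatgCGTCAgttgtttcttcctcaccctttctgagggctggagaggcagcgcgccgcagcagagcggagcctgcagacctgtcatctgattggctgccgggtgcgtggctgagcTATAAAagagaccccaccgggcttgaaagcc
Rgs8, chr1:153652787-153653036, plus strand: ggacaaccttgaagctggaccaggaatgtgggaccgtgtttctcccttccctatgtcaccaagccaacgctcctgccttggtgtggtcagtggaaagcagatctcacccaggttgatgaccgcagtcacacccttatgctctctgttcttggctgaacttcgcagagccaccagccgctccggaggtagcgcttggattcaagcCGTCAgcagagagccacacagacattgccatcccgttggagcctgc
Rgs12, chr5:34949198-34949447, plus strand: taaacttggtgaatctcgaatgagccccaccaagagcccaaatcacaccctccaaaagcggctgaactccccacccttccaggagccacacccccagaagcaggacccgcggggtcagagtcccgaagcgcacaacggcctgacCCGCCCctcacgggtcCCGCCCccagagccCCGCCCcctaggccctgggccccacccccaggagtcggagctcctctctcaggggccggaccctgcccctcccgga
The Rgs4 run held 2 CRE half-sites, 236 and 141 bases before the start, and 1 TATA motif. The Rgs8 run, before the first of its listed starts, held 1 CRE half-site, 46 bases before the start. The Rgs12 run, before the first of its listed starts, held 3 GC boxes and neither of the other motifs, while the run before its other listed start, not shown, held 1 CRE half-site and 1 GC box. The runs before the remaining listed starts of Rgs8 held none of the 3 motifs. Among 32851 upstream runs of the same length in the RefSeq table, 17.8% held a CRE half-site, 12.4% a TATA motif and 32.7% a GC box, on either strand. A full CRE counts as overlapping half-sites on both strands. Of the 10 RGS genes, 9 matched that table, and 4 of these held a CRE half-site before at least 1 listed start. Rgs12 did so only before the start whose run is not shown. This count is of genes, some with several starts, while the 17.8% is of single runs, so they are not in the same unit. A match of letters is not a measured binding site.

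All values are FPKM, a count of fragments set relative to the length of the gene's exons and to the size of the library, which the authors also scaled between libraries. The column headers of the FPKM table named another region than the one used here for 4 of the 8 libraries. Columns D1, V1, D2 and V2 were taken as dorsal and columns D3, V3, D4 and V4 as ventral, because the means over these columns matched the deposited regional means within 0.1% for 20676 of 20689 genes. The next best of the 70 ways to divide the libraries matched 1232. Which mean is the dorsal one follows the study's own list of genes by region. The regions of the libraries thus come from a match of values, not from a label. When the regions were taken from the headers, 1 gene of 13674 was called D>V and 0 V>D by limma, with 721 genes at an unadjusted p under 0.05, and 0 of the 10 RGS genes at that unadjusted level.

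Total FPKM per library ranged from 298763 to 341402, and the number of fragments behind each value is unknown. Mitochondrial genes took 5.6% to 7.28% of FPKM in 6 libraries and stood apart in 2, at 11.65% in the dorsal library V2 and 10.86% in the ventral library V4. The tissue held the 3 markers listed for MEC layer II, with mean FPKM in the dorsal and ventral MEC of 31.7 and 35.8 for Reln, which was not called, 76.6 and 52.5 for Wfs1, which was D>V, and 4.57 and 7.85 for Calb1, which was V>D. Among markers of glutamatergic neurons, Slc17a7 was at 107 and 105 and was not called, and Slc17a6, at 10.8 and 7.21, was D>V. Some cell type markers differed between regions. The 6 oligodendrocyte markers listed were all D>V, with summed FPKM of 808 to 1070 in dorsal and 447 to 586 in ventral libraries. Among markers of GABAergic neurons, Pvalb was D>V (15.7 and 6.63) and Sst V>D (109 and 220). The other 4, Gad1, Gad2, Slc32a1 and Vip, were not called. Of 53 tested markers of 10 cell classes, 10 were D>V, 4 V>D and 39 not called. No microglial, endothelial or astrocyte marker was called. The part of these cell types in the results for RGS genes was not tested. In RNA from whole tissue, fewer cells of a type and less RNA per cell cannot be told apart.

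All 10 RGS genes were detected in both regions, and their levels spanned a wide range (see the plot of FPKM by library). In the dorsal MEC the order of mean FPKM was Rgs4 (94.8), Rgs7 (56.5), Rgs2 (24.3), Rgs8 (19.7), Rgs10 (9.81), Rgs6 (5.09), Rgs12 (4.53), Rgs9 (2.57), Rgs16 (2.29) and Rgs14 (1.71). In the ventral MEC it was Rgs4 (73.6), Rgs7 (50.4), Rgs2 (32.9), Rgs8 (15.1), Rgs10 (10.4), Rgs12 (7.11), Rgs6 (3.99), Rgs9 (3.28), Rgs14 (2.57) and Rgs16 (2.49). The first 5 places were the same in both regions. Library ranges of neighbours in the dorsal order overlapped for Rgs2 and Rgs8, for Rgs6 and Rgs12, and among Rgs9, Rgs16 and Rgs14. In the ventral order they overlapped only between neighbours among Rgs6, Rgs9, Rgs14 and Rgs16. Rgs4, with a mean FPKM above that of 95.9% of the genes tested, made up 42.8% of the summed FPKM of the 10 genes in the dorsal and 36.5% in the ventral MEC. The sum over the 10 genes was 221 ± 4.86 (SD, n = 4) in dorsal and 202 ± 5.79 in ventral libraries, with ranges of 217 to 228 and 196 to 210. FPKM is a level per length of transcript, so the order is not one of protein.

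**Figure D1:**
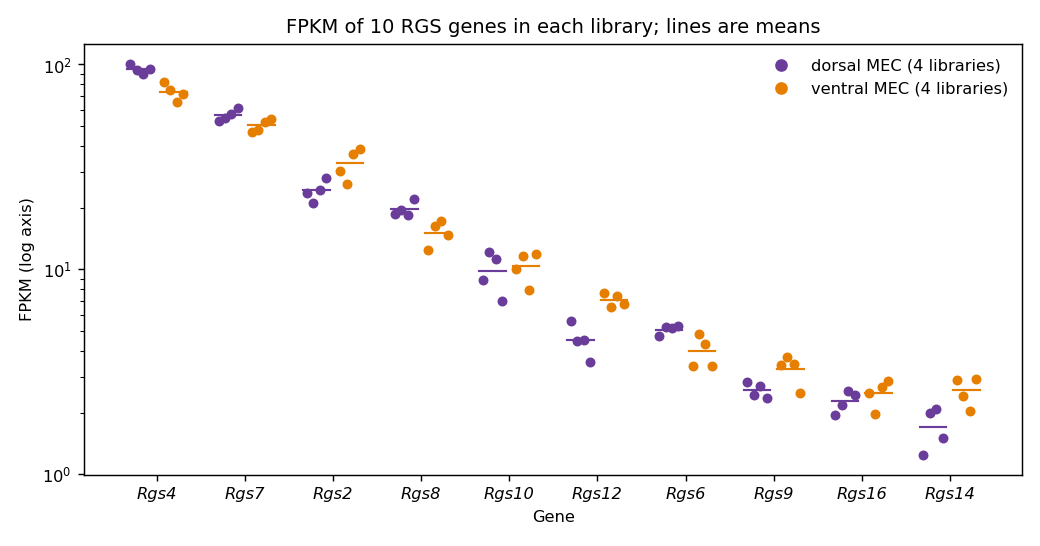
FPKM (log axis) of the 10 RGS genes, ordered by mean, in the 4 dorsal libraries (purple; from left D1, V1, D2, V2) and the 4 ventral libraries (orange; D3, V3, D4, V4), with the regional means as lines. The points of the regions are separate for Rgs4, Rgs8 and Rgs12 and overlap for the other 7 genes.

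Among the 10 RGS genes, 1, Rgs4, was called D>V and 1, Rgs12, was called V>D, where 3.60% of the 13674 genes tested were called in either direction, 2.15% D>V and 1.45% V>D. A call required that limma on log2(FPKM + 1) gave an adjusted p (Benjamini-Hochberg) under 0.05, and that the higher regional mean was more than 20% above the lower. The dorsal libraries lay wholly above the ventral for 2 of the 10 genes, Rgs4 and Rgs8, against 6.17% of all genes. They lay wholly below for 1, Rgs12, against 4.95%. The higher mean was more than 20% above the lower for 7 of the 10 genes, against 19.8% of all genes, and 5 of these 7 did not pass the test. At an unadjusted p under 0.05, 4 RGS genes were lower and 4 higher in the ventral MEC, against 8.71% and 7.31% of all genes. The 10 genes were chosen with earlier results of these data known. An excess over the shares of all genes therefore cannot be read as a result about the family. The genes did not lean one way, with 4 lower and 6 higher in the ventral MEC. Their median log2 ratio of ventral to dorsal mean FPKM was 0.11, beside −0.005 for all genes.

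**Figure D2:**
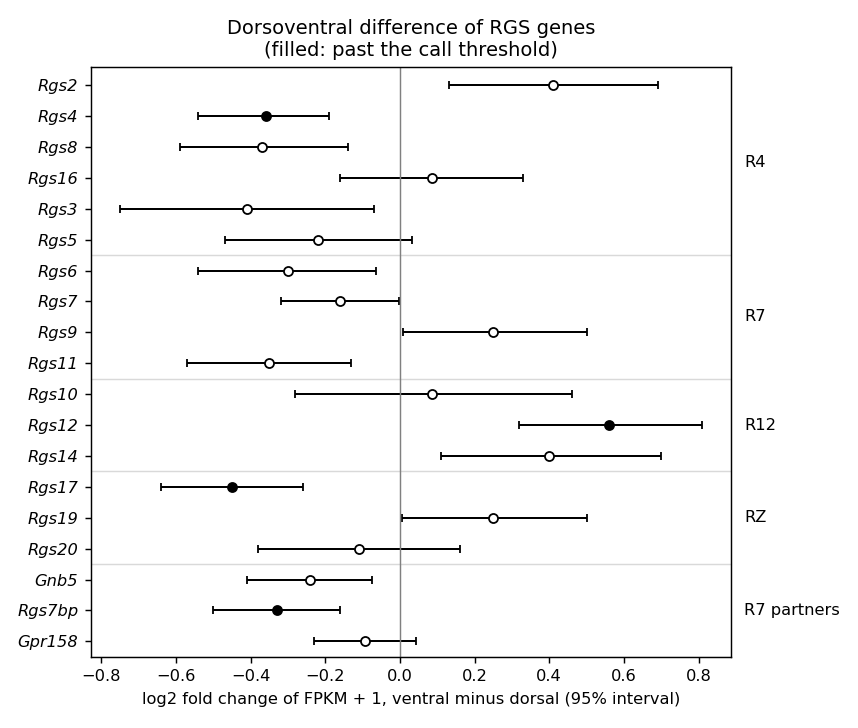
Log2 fold change of FPKM + 1 (ventral minus dorsal) with its 95% interval from limma, by subfamily. Shown are the 10 RGS genes, the other tested genes of the R4, R7 and RZ subfamilies, and the tested R7 partners. Filled points are the 4 genes past the call threshold, with Rgs4, Rgs17 and Rgs7bp left of 0 and Rgs12 right of it.

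In the R4 subfamily, Rgs4 was D>V, Rgs8 had nearly the same fold change without passing the test, Rgs2 had a fold change of the opposite sign that did not pass, and Rgs16 had an interval on both sides of 0. Rgs4 (ENSMUSG00000038530, chr1:169741477-169747642, minus strand) acts on Gi/o and Gq alpha subunits and was chosen as a gene of layer III, although the libraries do not separate layers. Its FPKM was 101, 93.7, 89.6 and 94.6 in the dorsal libraries D1, V1, D2 and V2 and 82.4, 74.7, 65.6 and 71.8 in the ventral libraries D3, V3, D4 and V4. Every dorsal library lay above every ventral one. The means were 94.8 ± 4.93 (SD, n = 4) and 73.6 ± 7.00, so that the ventral mean fell by 22.4% from the dorsal. On the log2(FPKM + 1) scale the difference, ventral minus dorsal, was −0.36 (SE 0.077, 95% interval −0.54 to −0.19, limma adjusted p = 0.0286). Of the 5 glutamatergic markers, Slc17a6 was also D>V (10.8 and 7.21, log2 fold change −0.52, limma adjusted p = 0.00235) and the other 4 were not called. Their summed FPKM was 553 to 705 in dorsal and 568 to 732 in ventral libraries. The oligodendrocyte markers were D>V, as given above, and the part of either class in the Rgs4 difference was not tested.

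The call for Rgs4 lay close to the threshold. With any 1 of the 8 libraries left out, its fold change stayed between −0.42 and −0.31 and the limma adjusted p lay between 0.0244 and 0.0842. It was called without D3 or without V3, and not called without any 1 of D1, V1, D2, V2, D4 or V4. Without both V2 and V4, the libraries with the most mitochondrial RNA, the fold change was −0.35 and the adjusted p was 0.130. Rescaling the libraries to the same total FPKM gave −0.34 with an adjusted p of 0.110, and quantile normalization −0.33 with 0.0654.

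Rgs8 (chr1:153653025-153697667, plus strand) acts on Gi/o alpha subunits and is known for speeding the gating of potassium channels driven by G proteins. Its FPKM was 18.7, 19.6, 18.5 and 22.1 in the dorsal libraries and 12.4, 16.2, 17.2 and 14.7 in the ventral libraries, in the same order. The regions did not overlap, and the gap between them, from 17.2 to 18.5, was small beside the spread within the ventral MEC. The means were 19.7 ± 1.66 and 15.1 ± 2.08, and the log2 fold change was −0.37 (SE 0.10, 95% interval −0.59 to −0.14). Its limma adjusted p of 0.0839 missed the threshold. When libraries were weighted by their quality, the fold change was −0.40 and the adjusted p 0.0499, which passed it. This was the only 1 of 21 alternatives that called Rgs8. None of the 8 fits that left out 1 library did, with limma adjusted p from 0.068 to 0.183.

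Rgs2 (chr1:143999338-144004161, minus strand) acts mainly on Gq alpha subunits, and its transcript is induced by neuronal activity. Its FPKM was 23.6, 21.2, 24.5 and 28.0 in the dorsal libraries and 30.2, 26.0, 36.7 and 38.6 in the ventral libraries. One ventral library, V3 at 26.0, lay below the highest dorsal library, V2. The means were 24.3 ± 2.81 and 32.9 ± 5.81, and the log2 fold change was 0.41 (SE 0.13, 95% interval 0.13 to 0.69, limma adjusted p = 0.119). Without V3, the fold change was 0.52 with an adjusted p of 0.0340. With the libraries rescaled to the same total FPKM it was 0.44 with 0.0470. These were the only 2 of 21 alternatives that called Rgs2. The other 7 fits that left out 1 library did not call it, with limma adjusted p up to 0.275. The adjusted p was 0.0854 under quantile normalization and 0.188 without both V2 and V4. In each region Rgs2 was highest in the library with the largest mitochondrial share, V2 and V4. The part of the mitochondrial share in the difference was not tested.

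Rgs16 (chr1:153740349-153745468, plus strand) lies 42.7 kb beyond Rgs8 on chromosome 1 and is known for its daily rhythm in the hypothalamic clock. Its FPKM was 1.95, 2.19, 2.56 and 2.45 in dorsal and 2.49, 1.96, 2.66 and 2.87 in ventral libraries, and the regions overlapped through most of their range. The log2 fold change was 0.085 (95% interval −0.16 to 0.33, limma adjusted p = 0.779). Rgs8 and Rgs16 thus had neighbouring loci and fold changes of opposite sign, of which neither passed the test. As a share of Rgs8 in the same library, Rgs16 was 11.6% ± 1.51 in dorsal and 16.8% ± 3.71 in ventral libraries, which overlapped.

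Ratios of FPKM between 2 genes of the same library do not depend on the scaling of the library. These pairs were chosen after the values had been seen and are given with no test. Rgs2 was 23.2%, 22.6%, 27.4% and 29.6% of Rgs4 in the dorsal libraries and 36.7%, 34.9%, 56.0% and 53.8% in the ventral libraries. The regions did not overlap, although those of Rgs2 alone did. Since Rgs4 was itself lower in every ventral library than in every dorsal one, the separation in part restates the Rgs4 difference. Within the ventral MEC the ratio was higher in D4 and V4 than in D3 and V3. Rgs8 was 20.8% ± 2.02 of Rgs4 in the dorsal and 20.9% ± 4.60 in the ventral MEC, so that this ratio did not differ beyond its spread.

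**Figure D3:**
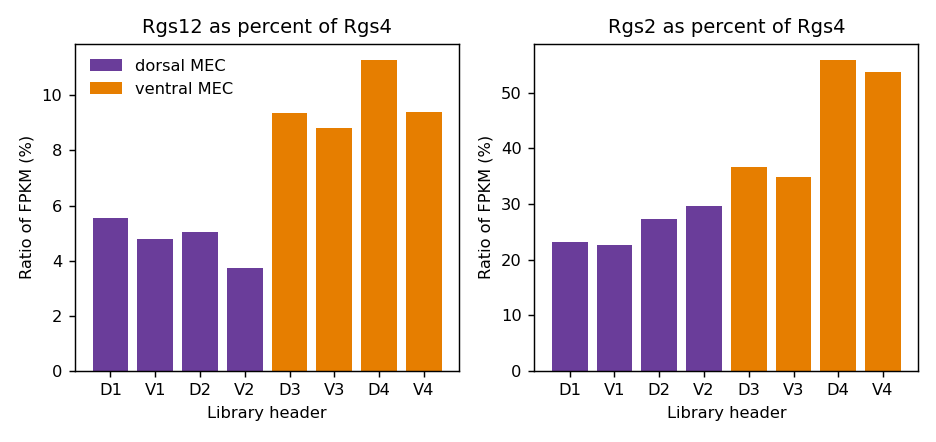
FPKM of Rgs12 (left) and Rgs2 (right) as a percent of the FPKM of Rgs4 in the same library, 1 bar per library, dorsal in purple and ventral in orange. Every ventral bar is taller than every dorsal bar in both plots, with ranges of 8.81% to 11.3% against 3.73% to 5.53% for Rgs12 and 34.9% to 56.0% against 22.6% to 29.6% for Rgs2. The shared denominator, Rgs4, was itself lower in every ventral library than in every dorsal one.

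None of the R7 members passed the test, and their fold changes had both signs. Rgs7 (chr1:175059736-175491130), the most abundant R7 gene in these libraries, acts on Gi/o alpha subunits and on GABA(B) receptor signals. Its FPKM was 52.7, 54.5, 57.5 and 61.4 in dorsal and 46.9, 47.7, 52.6 and 54.2 in ventral libraries. The highest ventral library, V4, lay above the lowest dorsal one, D1, and the fold change was −0.16 (SE 0.072, 95% interval −0.32 to −0.0025, limma adjusted p = 0.305). Rgs7 had the smallest spread for its level in the ventral MEC among the 10 genes, with a coefficient of variation of 6.74% in dorsal and 7.14% in ventral libraries.

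Rgs6 (chr12:82616925-83133744), known for ending muscarinic signals in the heart and GABA(B) signals in the cerebellum, was even across dorsal libraries at 4.75, 5.21, 5.16 and 5.27. The ventral libraries were more spread, at 3.39, 4.84, 4.34 and 3.37, and 1 of them, V3, lay above the lowest dorsal library. Its coefficient of variation was 4.61% in the dorsal and 18.3% in the ventral MEC, and the fold change was −0.30 (SE 0.11, 95% interval −0.54 to −0.065, limma adjusted p = 0.178).

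Rgs9 (chr11:109225355-109298129) is known from photoreceptors and from striatal neurons, where it acts on dopamine signals. Its FPKM was 2.82, 2.43, 2.69 and 2.36 in dorsal and 3.41, 3.75, 3.45 and 2.49 in ventral libraries. Of the ventral libraries V4 lay within the dorsal range and the other 3 above it, and the fold change was 0.25 (SE 0.11, 95% interval 0.0083 to 0.50, limma adjusted p = 0.294). Markers of striatal projection neurons were low for 2 defining genes, with Drd2 at a mean FPKM of 0.285 and 0.417 in the dorsal and ventral MEC and Adora2a at 0.183 and 0.130. Over the 7 markers, the summed FPKM was 32.5 to 35.6 in dorsal and 31.0 to 33.1 in ventral libraries, none of the 7 was at 0, and of the 5 tested 1, Ppp1r1b, was D>V.

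In the R12 subfamily, Rgs12 was V>D, Rgs14 had a fold change of the same sign that did not pass the test, and Rgs10 had an interval wide on both sides of 0. Rgs12 (ENSMUSG00000029101, chr5:34949445-35039644, plus strand) is a large protein with PDZ, phosphotyrosine-binding, Ras-binding and GoLoco domains, the last of which holds alpha subunits in their inactive form. Its FPKM was 5.61, 4.46, 4.5 and 3.53 in the dorsal libraries and 7.71, 6.58, 7.41 and 6.75 in the ventral libraries. Every ventral library lay above every dorsal one. The means were 4.53 ± 0.852 (SD, n = 4) and 7.11 ± 0.536, a level 57.1% higher in the ventral MEC. The log2(FPKM + 1) difference, which understates the change at such levels, was 0.56 (SE 0.11, 95% interval 0.32 to 0.81, limma adjusted p = 0.0215).

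The call for Rgs12 was made in 4 of 8 fits that left out 1 library, with fold changes of 0.47 to 0.65 and limma adjusted p from 0.00962 to 0.0751. It was not made without V1, D2, D3 or D4. Without both V2 and V4 the fold change was 0.49 and the adjusted p 0.0783. It was made under the same total FPKM (adjusted p = 0.0463) and under quantile normalization (0.0207). In later annotation of the same build, GENCODE M21, 467 bases of Rgs12 exons are shared with an antisense gene, Gm43791, which had no row in the deposited table. Other antisense genes without a row shared 236 exon bases with Rgs16 (Gm28513), 77 with Rgs6 (Gm29530) and 70 with Rgs8 (Gm29529). Whether the counting used strand is not given in the sources used here, so that reads of these pairs cannot be told apart.

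The ratio of the 2 called genes restates their calls, since genes called in opposite directions without overlap between regions must give ratios that do not overlap. It is shown for its size in each library. Rgs12 was 5.53%, 4.77%, 5.03% and 3.73% of Rgs4 in the dorsal libraries and 9.36%, 8.81%, 11.3% and 9.41% in the ventral libraries. The means were 4.76% ± 0.757 and 9.72% ± 1.09.

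Rgs14 (chr13:55369732-55384687) binds Ras proteins and alpha subunits and is known for limiting synaptic plasticity in hippocampal area CA2. Its FPKM was 1.24, 2.0, 2.08 and 1.5 in dorsal and 2.89, 2.42, 2.04 and 2.91 in ventral libraries. The regions overlapped by 1 library each, since the ventral library D4 lay below the dorsal library D2. The ventral mean was 50.4% above the dorsal (2.57 ± 0.418 and 1.71 ± 0.402), with a fold change of 0.40 (SE 0.13, 95% interval 0.11 to 0.70) and a limma adjusted p of 0.153. Of the 6 CA2 markers listed, none was at 0 and 3 were tested, among which Ntf3 was V>D and Pcp4 had a mean FPKM of 668 in the dorsal and 504 in the ventral MEC. Amigo2 (0.626 and 0.544), Cacng5 (0.675 and 0.768) and Map3k15 (0.253 and 0.303) lay below a mean FPKM of 1. The summed FPKM of the 6 markers, 575 to 732 in dorsal and 435 to 626 in ventral libraries, was thus almost wholly that of Pcp4, and the part of these cells in the Rgs14 values was not tested.

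Rgs10 (chr7:128373621-128418758), a small protein abundant in microglia and also found in neurons, varied most between dorsal libraries together with Rgs14, with coefficients of variation of 23.8% and 23.6%. Its FPKM was 8.84, 12.1, 11.3 and 6.99 in dorsal and 10.1, 11.6, 7.89 and 11.9 in ventral libraries, and the fold change was 0.086 (SE 0.17, 95% interval −0.28 to 0.46, limma adjusted p = 0.863). Its sign turned without the dorsal library V2, to −0.051, and without both V2 and V4, to −0.12. None of the 7 microglial markers was called or at 0, and their summed FPKM was 69.6 to 74.4 in dorsal and 71.5 to 77.8 in ventral libraries.

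Summed over its members, the R4 subfamily was at 141 ± 6.12 FPKM in the dorsal and 124 ± 4.39 in the ventral MEC, with ranges of 135 to 147 and 119 to 128 that did not overlap. Rgs4 made up 67.2% of this sum dorsally and 59.3% ventrally. The R7 sum was 64.2 ± 3.85 and 57.7 ± 3.20, with ranges of 60.3 to 69.0 and 53.7 to 60.4. The R12 sum was 16.0 ± 2.95 and 20.1 ± 1.86, with ranges of 12 to 18.5 and 17.3 to 21.6. The last 2 overlapped between regions. Since sums follow their most abundant genes, the R7 values were mostly those of Rgs7. Left out were, among others, Rgs5 of R4 (36.9 in dorsal and 31.4 in ventral) and Rgs11 of R7 (13.8 and 10.6). The share of Rgs4 and the overlap of the R7 sums thus hold for the genes summed only.

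The remaining genes of the family and the proteins they work with were taken from a list of 40. It too was drawn up with earlier results of these data known. Of the 40 genes, 39 had a row and 29 were tested. Among these 29, 2 were called D>V, 0 V>D and 27 in neither direction, by limma. Over all genes tested, 2.15% were called D>V and 1.45% V>D. At an unadjusted p under 0.05, 7 of the 29 were lower and 2 higher in the ventral MEC, against 8.71% and 7.31% of all genes. Their median log2 ratio was −0.038, beside −0.005 for all genes. Rgs17, of the RZ subfamily, which acts on Gi/o and Gz alpha subunits, was called D>V. Its FPKM was 53.9, 48.6, 48.0 and 57.1 in dorsal and 36.3, 38.8, 33.3 and 42.6 in ventral libraries, without overlap, with a fold change of −0.45 (SE 0.087, limma adjusted p = 0.0191). When single libraries were left out in turn, 5 of 8 fits called it, but not those without D1 (adjusted p = 0.0564), V2 (0.0540) or D3 (0.0668).

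The partners of the R7 members were also measured. Rgs7bp, which anchors R7 proteins at the membrane, was called D>V, at 69.4, 65.2, 62.1 and 71.3 in dorsal and 54.1, 54.0, 47.1 and 58.1 in ventral libraries. The fold change was −0.33 (SE 0.077, limma adjusted p = 0.0461), and the call was made in 1 of the 8 fits that left out 1 library, the one without V4. Gnb5, the obligate beta subunit of R7 proteins, was at 12.3 ± 0.905 and 10.2 ± 0.719, with no overlap between regions and an adjusted p of 0.124. Gpr158, an orphan receptor that binds Rgs7, was at 39.3 ± 2.37 and 36.7 ± 1.24 (adjusted p = 0.524). Rgs9bp, the anchor known from the retina, had a mean FPKM of 0.0899 and 0.0955 and was not tested.

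The other relatives and the substrates of RGS proteins gave no call. Rgs11, the remaining R7 gene, was at 13.8 ± 1.20 and 10.6 ± 1.38 without overlap (limma adjusted p = 0.0865). Rgs5, which lies 45.7 kb from Rgs4 on chromosome 1 and marks pericytes, was at 36.9 ± 5.70 and 31.4 ± 2.92 (adjusted p = 0.389). Markers of mural cells, pericytes included, had summed FPKM of 22.5 to 26.6 in dorsal and 25.4 to 31.2 in ventral libraries. Most of that sum was 1 of the 7 genes, Vtn, which was V>D with means of 13.8 and 18.7. The other 6 were not called, with lower ventral means for Pdgfrb, Abcc9, Acta2 and Higd1b and higher ones for Kcnj8 and Cspg4. The median log2 ratio of the 7 was −0.07. Of the 11 alpha subunit genes tested, 0 were called, with a median log2 ratio of 0.023. Of 3 tested GIRK channel genes, encoding potassium channels opened by G proteins, and of 2 tested genes of other GoLoco proteins, 0 were called. Among these, the alpha subunit Gna12 (limma unadjusted p = 0.0384, adjusted 0.277) and the GoLoco gene Gpsm1 (0.0463, adjusted 0.302) were below 0.05 before adjustment only.

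The genes whose pattern over the 8 libraries was most like that of Rgs4 were Usp31 (Pearson r = 0.98 of log2(FPKM + 1)), Lphn2 (0.97) and Gpr126 (0.97), and of these Gpr126 was called D>V. Those most like Rgs12 were 2700094K13Rik (0.99), which was called V>D, Mylk (0.98) and Blcap (0.97). These correlations include the difference between regions and any shared scaling of the libraries, and are given as a description.

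**Figure D4:**
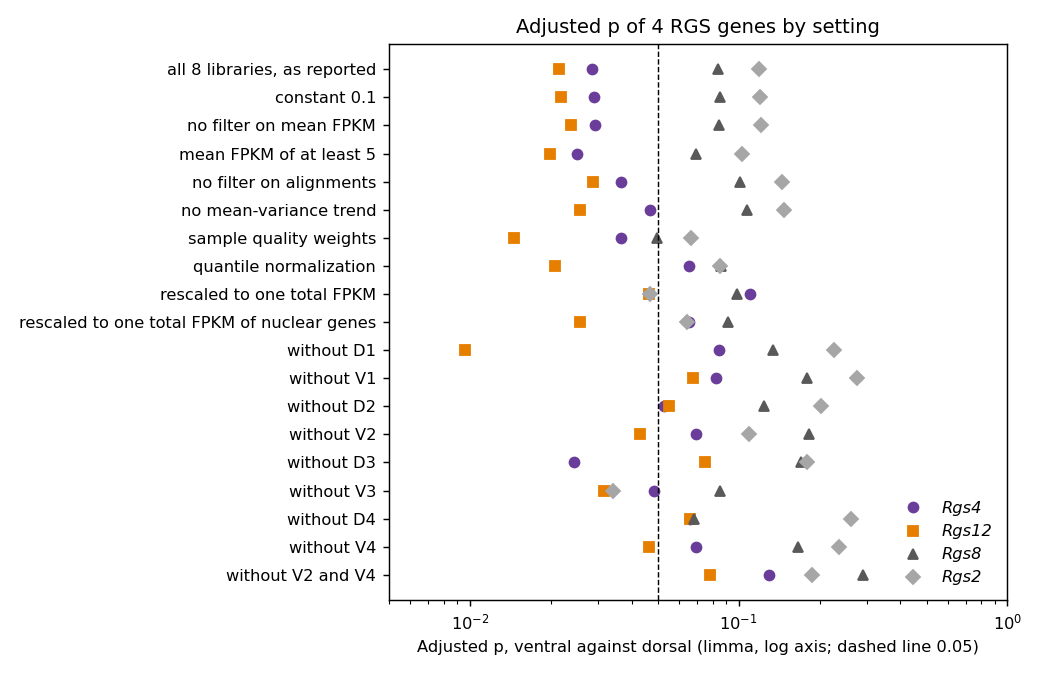
Adjusted p (limma, log axis) of the dorsoventral difference for Rgs4, Rgs12, Rgs8 and Rgs2 under the fit reported and under each alternative that kept the regions and at least 3 libraries of each, with a dashed line at 0.05. Most points lie between 0.01 and 0.3, with those of Rgs12 and Rgs4 on both sides of the line.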

How the data were processed

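RNA of 4 dorsal and 4 ventral pools was amplified with the Ovation RNA-Seq System V2 and sequenced as paired ends. The authors aligned reads with TopHat2 2.0.8 to GRCm38 with Ensembl release 73 and estimated gene levels with Cuffdiff, and deposited FPKM values for each gene and library (CASAVA 1.8 was also named in the submitters' processing notes). The authors' columns of fold changes and p-values were not used, and 4 columns of per-sample fragment estimates could not be matched to single samples, so no count test was run. Regions follow the match of column means to the deposited regional means.

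Genes with enough alignments, as the authors marked them, and a mean FPKM of at least 1 were kept (13674). The regional difference in log2(FPKM + 1) was fitted by limma 3.58.1 (R 4.3.3), whose prior variance followed the mean level, with Benjamini-Hochberg adjustment across these genes. Calls needed an adjusted p below 0.05 and means that differed by over 0.263 on the log2 scale. The fit was tested on simulated data. Named were all 10 members, called relatives and those giving their range, and the 3 genes most correlated with each called member. Markers set beside a member and antisense genes that share exon bases with a member were named too. The within-library ratios were added after the values had been seen. The members and lists were chosen with earlier results of these data known. Alternatives were other constants, filters, scalings, weights and region assignments, and leaving out each library. Python 3.11.15, pandas 2.3.3 and matplotlib 3.10.9 were used.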

Additional observations from a re-analysis of the deposited data

How the results depend on the processing

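The count of RGS genes called D>V, 1 as reported, was 0 after rescaling to the same total FPKM, after quantile normalization, with the regions of the headers, with the 4 libraries whose headers agree, after rescaling by nuclear genes and without V2 and V4, and 2 with quality weights (limma). The count called V>D, also 1, was 2 after rescaling to the same total FPKM, and 0 with the regions of the headers, with the 4 agreeing libraries and without V2 and V4. At an unadjusted p under 0.05, 0 members passed with the regions of the headers, 3 with the 4 agreeing libraries and 5 without V2 and V4. Over all genes tested in these settings, in the same order, 721 of 13674, 1240 of 13661 and 1969 of 13680 passed. Leaving out 1 library gave 0 to 1 D>V and 0 to 2 V>D among members. Relatives and partners called D>V, 2 as reported, were 1 without the alignment filter, after rescaling to the same total, after quantile normalization, without the trend, after rescaling by nuclear genes and without V2 and V4, and 0 with the regions of the headers and with the 4 agreeing libraries. Leaving out 1 library gave 0 to 2. Relatives called V>D stayed at 0 in every setting run. The causes were not tested, although fits without a library also had fewer samples. Nuclear rescaling and the fit without V2 and V4 were chosen after seeing the data.

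With the regions of the headers, log2 fold changes turned sign for Rgs2 (−0.026), Rgs12 (−0.22), Rgs16 (−0.022), Rgs6 (0.064), Rgs7 (0.052), Rgs8 (0.11), Rgs9 (−0.13), Rgs17 (0.13) and Rgs7bp (0.10). Rgs10 ranged from −0.051, without the dorsal library V2, to 0.20 when 1 library was left out, and turned to −0.12 without V2 and V4. In the other alternatives no member turned sign. Over all genes, leaving out 1 library gave 157 to 341 calls D>V and 91 to 191 V>D, and leaving out V2 and V4 gave 125 and 76. With the 4 agreeing libraries 0 genes were called, with 1240 at an unadjusted p under 0.05. No paired analysis was possible because the library columns carry no group of mice. Depth is unknown, which limits what can be said of Rgs9, Rgs14 and Rgs16, the members of lowest FPKM.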
